A study of Mus musculus with 16 samples.

Results

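The 4 genes Ebf1, Ebf2, Ebf3 and Ebf4 encode the early B cell factors, a small family of transcription factors. They were chosen by name, as the whole family, from the 21631 protein-coding genes examined on chromosomes 1 to 19 and X. H3K27me3 peaks were measured over each gene body plus 20 kb on each side, called the window of the gene below. Ebf1 had no peak in its window in any of the 4 peak lists, whereas Ebf2, Ebf3 and Ebf4 had peaks in each list. Whether Ebf1 was transcribed in these cells was not measured, since the files hold peaks only.

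H3K27me3 is a methyl mark on histone H3 that Polycomb repressive complex 2 writes through its catalytic subunit EZH2, and it marks silenced developmental genes, often as broad domains around CpG-rich start sites. Ebf1 is required for commitment to the B lineage and switches on genes of the pre-B and B cell receptors together with Tcf3 and Pax5. Its paralogues bind the same kind of DNA sequence but act mostly elsewhere: Ebf2 in brown fat cells, bone and neurons, Ebf3 in neurons and muscle, and Ebf4, the least studied, in olfactory neurons among other cells.

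Splenic B cells came from C57BL/6 mice aged 6 to 8 weeks and had been purified with magnetic beads against CD43. The mice were either wild type (WT) or triple mutants for Ifih1, Rigi and cGAS, which encode sensors of nucleic acids in the cytosol; how the alleles were made is not stated in the sources used here. Cells of each genotype were cultured for 48 h with 2 ng/mL BAFF and 2 ng/mL IL-4 in all groups, either with the solvent DMSO or with 1 µM GSK343, a small-molecule inhibitor of EZH2. For each combination there were 2 ChIP samples and 2 inputs, and the data analysed were 1 list of broad peaks per combination, 4 in all.

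Each list was called on pooled replicates, as far as the peak names tell, although the mutant prefixes end in 1, so these lists may rest on replicate 1. Without values per replicate, no difference between lists could be set against a spread between replicates, no test was made, and the values below describe these 4 lists. The lists held between 10847 and 49803 peaks and covered between 16.95 and 134 Mb, both ends of the ranges being mutant lists. A gene without a peak is a gene where nothing passed the authors' peak calling, and read depth is unknown. As a check of the labelled cell type, the bodies of the B cell genes Cd79a, Cd79b, Ms4a1, Pax5 and Cd22 had no peak in the 4 lists. In the window, Pax5 had a peak in each list (2.31% covered in WT DMSO) and Cd79a in both DMSO lists, while Cd79b, Ms4a1 and Cd22 had none. Of 5 T cell genes, 3 (Cd3e, Cd3g and Cd4) had a peak in the body in both DMSO lists. Of 4 myeloid genes, Cd14 had a peak in the body in each list and Lyz2, Csf1r and Itgam in none. Over all protein-coding genes, a peak in the body was found for 31.8% under DMSO and 21.4% under GSK343 in WT cells, and for 34.6% and 20.3% in mutant cells. Peaks do not show which cells a sample holds.

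The RefSeq promoter sequences of the family (GRCm38.p6) are shown for their CpG content, a sequence feature with which Polycomb domains are associated. Each sequence runs 5′ to 3′ on the strand of the gene, from 250 bases before to 50 bases after a start site. Capitals mark each CpG dinucleotide. Of the 4 genes, 3 had an entry, and Ebf1 had entries for a pair of start sites. Ebf2, which had peaks in each list, had no entry, so only Ebf1, Ebf3 and Ebf4 could be compared.
Ebf1, start site at 44618100 (chr11:44617850-44618149, plus strand): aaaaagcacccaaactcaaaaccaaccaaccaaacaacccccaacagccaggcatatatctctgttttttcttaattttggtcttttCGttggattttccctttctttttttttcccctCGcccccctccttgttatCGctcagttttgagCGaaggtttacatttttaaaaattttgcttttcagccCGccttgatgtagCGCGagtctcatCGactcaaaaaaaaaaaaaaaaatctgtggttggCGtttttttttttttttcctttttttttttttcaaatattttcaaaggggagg
Ebf1, start site at 44620228 (chr11:44619978-44620277, plus strand): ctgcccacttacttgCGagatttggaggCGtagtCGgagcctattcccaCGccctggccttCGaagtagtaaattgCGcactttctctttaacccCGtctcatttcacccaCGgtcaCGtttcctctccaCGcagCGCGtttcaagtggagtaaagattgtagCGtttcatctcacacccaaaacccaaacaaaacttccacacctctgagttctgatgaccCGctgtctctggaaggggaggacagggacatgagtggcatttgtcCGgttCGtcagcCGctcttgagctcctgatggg
Ebf3, start site at 137314445 (chr7:137314396-137314695, minus strand): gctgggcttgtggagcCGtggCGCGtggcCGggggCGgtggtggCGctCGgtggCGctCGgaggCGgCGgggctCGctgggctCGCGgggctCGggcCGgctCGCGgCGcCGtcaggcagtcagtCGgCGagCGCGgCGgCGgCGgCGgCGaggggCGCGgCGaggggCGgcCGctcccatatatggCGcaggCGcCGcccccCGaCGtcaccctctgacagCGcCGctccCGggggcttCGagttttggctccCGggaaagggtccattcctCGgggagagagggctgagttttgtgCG
Ebf4, start site at 130295939 (chr2:130295689-130295988, plus strand): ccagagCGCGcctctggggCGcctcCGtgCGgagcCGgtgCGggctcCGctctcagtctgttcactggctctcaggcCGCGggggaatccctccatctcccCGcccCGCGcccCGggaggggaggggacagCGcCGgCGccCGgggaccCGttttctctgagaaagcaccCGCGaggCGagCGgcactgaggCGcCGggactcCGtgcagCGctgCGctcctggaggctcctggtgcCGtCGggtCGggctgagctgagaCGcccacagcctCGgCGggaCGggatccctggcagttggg

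The Ebf1 promoters held 9 and 17 CpG dinucleotides, the Ebf4 promoter 35 and the Ebf3 promoter 46. Among the 32619 RefSeq promoters examined, the median was 7, and 46.1% held at least 9, 31.6% at least 17, 7.00% at least 35 and 1.66% at least 46. GC content was 36.7% and 53.0% at Ebf1, 74.3% at Ebf4 and 77.0% at Ebf3.

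Peaks covered 100% of the Ebf3 promoter and 100% of the Ebf4 promoter in each of the 4 lists, and no base of the Ebf1 promoters in any list. Over all promoters, the share touched by a peak was 18.1% under DMSO and 11.3% under GSK343 in WT cells, and 20.5% and 10.5%, respectively, in mutant cells. The share of promoters in a peak was lowest among those with few CpG dinucleotides, at 8.30% in WT DMSO and 2.11% in WT GSK343 for 0 to 4. Among promoters with 5 to 9 CpG dinucleotides, the class of the first Ebf1 promoter, 19.7% were in a WT DMSO peak and 8.75% in a WT GSK343 peak. In the class of the second Ebf1 promoter, 15 to 19, the shares were 27.4% and 20.8%. They were 26.6% and 21.9% in the class of Ebf4 (35 to 39), and 30.2% and 25.2% in that of Ebf3 (40 to 67). So most promoters as rich in CpG as those of Ebf3 and Ebf4 had no peak. The WT DMSO share did not rise steadily with CpG number, being 29.8% in the class of 10 to 14.

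**Figure D1:**
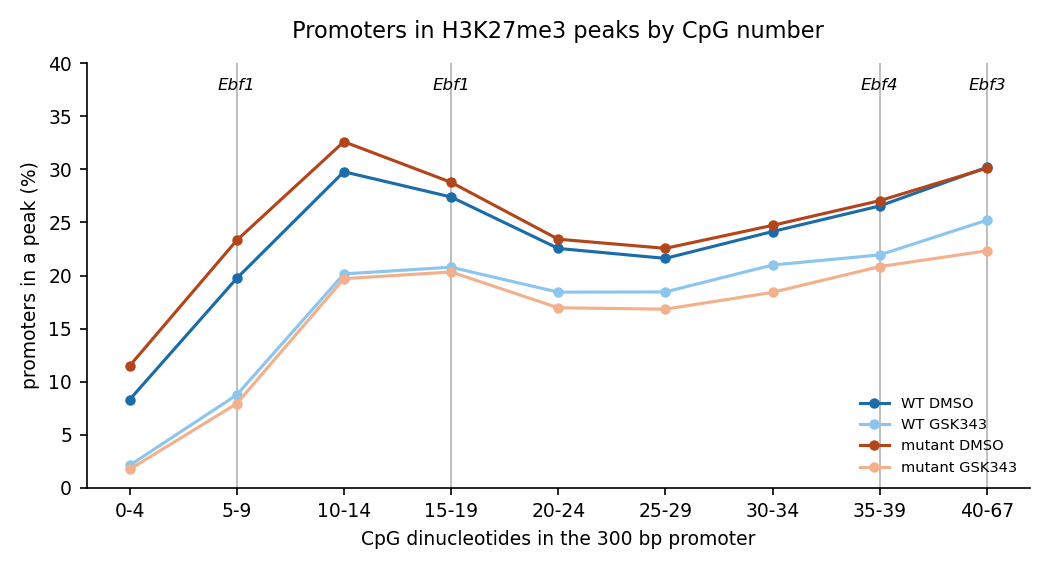
Share of RefSeq promoters (300 bp, y axis, in percent) touched by an H3K27me3 peak, by the number of CpG dinucleotides in the promoter (x axis, classes), for each of the 4 peak lists (lines). Grey vertical lines mark the classes of the 2 Ebf1 promoters, of Ebf4 and of Ebf3. The WT DMSO share was 8.30% in the class of 0 to 4 and between 19.7% and 30.2% in the others.

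Ebf1, the B lineage factor, lies on chromosome 11 at 44618100 to 45008096, a body of 389.997 kb. Its covered share was 0% under DMSO and 0% under GSK343 in WT cells, and likewise 0% and 0% in mutant cells. A window without a peak in all 4 lists was common: it was found for 33.6% of protein-coding genes. Long genes have more bases that a peak can touch, and Ebf1 is long. Of the 369 protein-coding genes at least as long as Ebf1, 46, Ebf1 included, had no peak in the window in all 4 lists, or 12.5%.

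The interval without peaks around Ebf1 was longer than its window. In WT DMSO the nearest peaks ended at 44424465, 194 kb below the gene, and began at 45053404, 45.3 kb above it. In mutant DMSO the nearest peaks lay 193 kb below and 43.0 kb above. The interval between these neighbours measured 629 kb for the WT list and 626 kb for the mutant list, against a median distance between neighbouring peaks of 4.46 kb and 3.82 kb. Intervals at least as long made up 2.01% of those in WT DMSO and 1.44% of those in mutant DMSO. As no peak lay in the Ebf1 window of 430 kb, the interval could not be shorter than that. These low shares thus follow from the empty window and are no separate result.

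Under GSK343 the peaks 43 to 45 kb above Ebf1 were not called, and the next peak on that side lay 544 kb away in WT and 552 kb away in mutant cells. The whole interval was then 1714 kb in WT and 1140 kb in mutant cells, where the median distance between peaks was 21.1 kb and 18.7 kb. Intervals at least as long made up 2.35% of those in WT GSK343 and 4.89% of those in mutant GSK343, with the same limit. Peaks that the authors removed at blacklisted places leave gaps in the peak numbering. The numbers ran on without a gap across the windows of the 4 Ebf genes in each list, so no peak had been removed there.

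Ebf2, a regulator of brown fat and neuronal genes, lies on chromosome 14 at 67233292 to 67430952. In WT cells 6.05% of its window lay in peaks under DMSO (5 peaks) and 3.45% under GSK343 (4 peaks). In mutant cells the shares were 9.80% (10 peaks) and 4.12% (3 peaks), so the DMSO list was the higher one in both genotypes. Nearly all of this lay at the low-coordinate end of the gene, on both sides of its boundary. Each gene body was divided into 4 equal parts, numbered from the low-coordinate end. Peaks took up 15.2% of part 1 of Ebf2 under DMSO and 11.2% under GSK343 in WT cells, and 30.6% and 11.3% in mutant cells. Parts 2 and 4 and the 20 kb above the gene had no peak in the 4 lists.

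At that end of Ebf2 each list had 1 dominant peak, which was both the widest of the window and the one of highest fold, the authors' ratio of ChIP over background. In WT DMSO it spanned 67228072 to 67240479 (12.4 kb, fold 4.24), and in mutant DMSO 67226384 to 67243382 (17.0 kb, fold 5.04). In WT GSK343 it spanned 67232252 to 67238320 (6.07 kb, fold 3.17), and in mutant GSK343 67231576 to 67238388 (6.81 kb, fold 3.53). The widest peak was thus narrower under GSK343 in both genotypes and still crossed the gene boundary. Part of this was splitting of the domain. The WT GSK343 list had 4 peaks, from 67228207 to 67239838, within the span of the dominant WT DMSO peak. The mutant GSK343 list had 3, from 67228158 to 67239553, within that of mutant DMSO. With peaks closer than 3 kb merged, each GSK343 list had 1 peak in the window. The mutant DMSO peak ranked above 99.8% of its list in fold and the WT DMSO peak above 98.97% of its own. Under GSK343 the widest peak ranked above 94.3% of the mutant list and 68.7% of the WT list in fold. The lncRNA gene Gm20675 (67232416 to 67233195), next to this end of Ebf2, was covered by 100% in each list.

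Ebf3, a neuronal factor, lies on chromosome 7 at 137193671 to 137322805, on the minus strand, with the start site shown above near its high-coordinate end. In WT cells 26.5% of its window lay in peaks under DMSO (8 peaks) and 15.8% under GSK343 (7 peaks), and in mutant cells 33.0% (10 peaks) and 11.7% (8 peaks). Coverage was concentrated in part 4 of the body, which holds the start site. Peaks took up 86.8% of it under DMSO and 64.9% under GSK343 in WT cells, and 96.0% and 54.8% in mutant cells. Part 1, at the other end of the gene, and the 20 kb beyond it had no peak in the 4 lists.

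The widest peaks of the family lay over the start of Ebf3. The WT DMSO peak spanned 137296409 to 137331823 (35.4 kb, fold 4.40) and the mutant DMSO peak 137291803 to 137336327 (44.5 kb, fold 4.84). Each was wider than 99.9% of the peaks of its list. Under GSK343 this domain was called as a row of shorter peaks. The widest was 19048 bp long in WT (137306228 to 137325275, fold 3.78) and 11642 bp long in mutant cells (137311630 to 137323271, fold 3.51), and both contained the start site. In mutant GSK343 the peak of highest fold was another, narrower one at 137307219 to 137310690 (3.47 kb, fold 4.15).

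**Figure D2:**
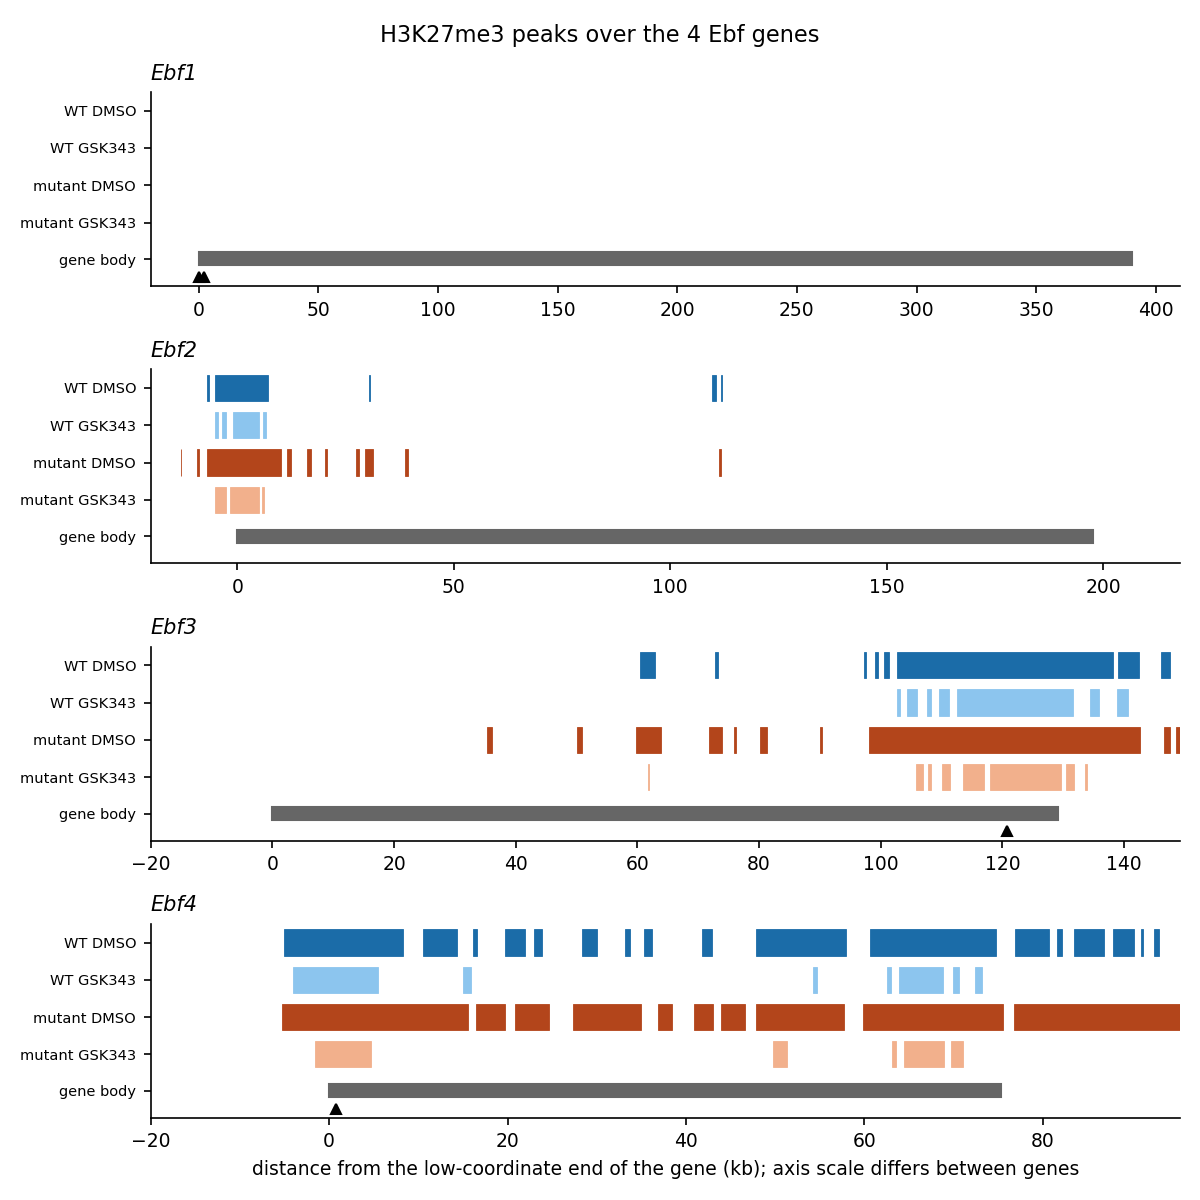
Peaks of the 4 lists (coloured boxes) over the 4 Ebf genes, with distance from the low-coordinate end of each gene in kb on the x axis (scales differ between genes). Grey bars are gene bodies, black triangles RefSeq start sites where an entry was found, and peaks are cut at the edge of the window. Ebf1 has none, Ebf2 and Ebf3 have 1 main domain each at 1 end, and Ebf4 has peaks along its length under DMSO.

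Ebf4 lies on chromosome 2 at 130295126 to 130370482, on the plus strand. It was the most covered of the 4 genes under DMSO, at 51.9% of the window in WT and 74.5% in mutant cells. Under GSK343 the shares were 15.2% in WT and 12.3% in mutant cells. WT cells had 17 peaks under DMSO and 7 under GSK343 there, and mutant cells 10 and 5. The mutant DMSO list had fewer peaks than WT DMSO but a median width of 5713 bp against 1628 bp, so that fewer and wider peaks covered more bases. A window covered by at least 50% was found for 2.75% of protein-coding genes in WT DMSO and 5.13% in mutant DMSO, and Ebf4 was among them in both lists. Under GSK343 the share of genes with such a window was 0.277% (WT) and 0.213% (mutant), and none of the 4 Ebf genes was among them.

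Unlike the 1 domain at Ebf2 and at Ebf3, peaks over Ebf4 under DMSO reached from the start to beyond the far end. In WT DMSO peaks took up 66.7%, 33.2%, 51.4% and 82.7% of parts 1 to 4 of the body, from the start site onward. In mutant DMSO they took up 95.3%, 69.4%, 74.7% and 88.7%. The 20 kb beyond the far end were covered by 53.9% in WT DMSO and 93.96% in mutant DMSO, and by 0% in both GSK343 lists. Under GSK343 part 2 had no peak in either genotype, while parts 1 and 4 were covered by 33.6% and 36.2% in WT and by 25.03% and 33.4% in mutant cells. The peaks called under GSK343 were thus found mainly at both ends of the gene.

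The widest WT DMSO peak of Ebf4 was the one at its far end, at 130355713 to 130369869 (14.2 kb, fold 3.78). In mutant DMSO the widest was over the start, at 130289805 to 130310750 (20.9 kb, fold 3.92), and the highest fold was at the far end, at 130355013 to 130370712 (15.7 kb, fold 4.25). Under GSK343 the widest peak was over the start in both genotypes, at 130291114 to 130300616 in WT (9.50 kb, fold 3.29) and at 130293526 to 130299841 in mutant cells (6.32 kb, fold 2.98). In mutant GSK343 the highest fold was again at the far end (130359613 to 130364093, fold 3.63).

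Ebf4 is the only one of the 4 whose window holds other protein-coding genes. Nop56, which encodes a core protein of small nucleolar ribonucleoproteins, lies at 130274367 to 130279313, and Idh3b, a subunit of mitochondrial isocitrate dehydrogenase, at 130279309 to 130284451. Both were covered by 0% in each list, and the DMSO peaks over the start of Ebf4 ended between Idh3b and Ebf4. Within the body of Ebf4 the lncRNA gene Gm39936 lay in peaks by 100% in both DMSO lists, by 0% in WT GSK343 and by 56.7% in mutant GSK343.

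**Figure D3:**
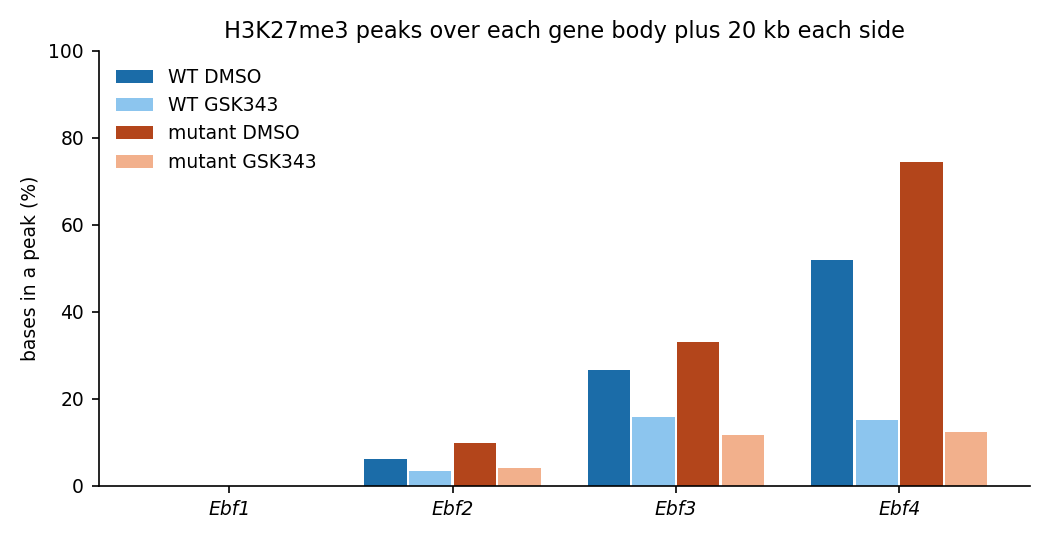
Share of bases (y axis, percent) of each gene body plus 20 kb on each side that lay in a peak, for the 4 Ebf genes (x axis) in the 4 lists (bars, 1 value each, no error bars because there is 1 list per group). Ebf1 is at 0 in each list, and the DMSO bars of Ebf2, Ebf3 and Ebf4 stand above the GSK343 bars of the same genotype.

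The 4 genes were then set against all protein-coding genes. A peak in the window was found for 59.6% of genes under DMSO and 37.3% under GSK343 in WT cells, for 64.8% and 34.1% in mutant cells, and for 3 of the 4 Ebf genes in each list. A peak in all 4 lists was found for 31.0% of genes and for Ebf2, Ebf3 and Ebf4. In WT DMSO the covered share of Ebf2 was above that of 66.9% of genes, that of Ebf3 above 90.7% and that of Ebf4 above 97.4%. In WT GSK343 these ranks were 82.0%, 95.9% and 95.7%, with Ebf3 and Ebf4 at nearly the same rank. In mutant cells Ebf2, Ebf3 and Ebf4 ranked above 65.6%, 88.8% and 98.5% of genes under DMSO and above 86.8%, 95.2% and 95.4% under GSK343. These ranks count every gene without a peak as lower, and such genes were more numerous under GSK343. A higher rank under GSK343, as at Ebf2, therefore does not mean a higher covered share. The order of the covered shares was Ebf4, Ebf3, Ebf2, Ebf1 in both DMSO lists, with all peaks and at each of the 3 thresholds on peaks that were tried. Under GSK343 the order of Ebf3 and Ebf4 depended on the peaks and the window used. With all peaks Ebf3 was the higher in WT (15.8% against 15.2%) and the lower in mutant cells (11.7% against 12.3%). With folds of 3 or more it was the higher in both genotypes, at 13.4% against 13.1% in WT and 11.5% against 3.88% in mutant cells. With −log10 p-values of 5 or more the WT shares were 12.5% and 8.85% and the mutant shares 11.5% and 9.36%. Over the gene body alone Ebf4 was the higher in both, at 17.96% against 16.2% in WT and 16.7% against 13.9% in mutant cells.

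**Figure D4:**
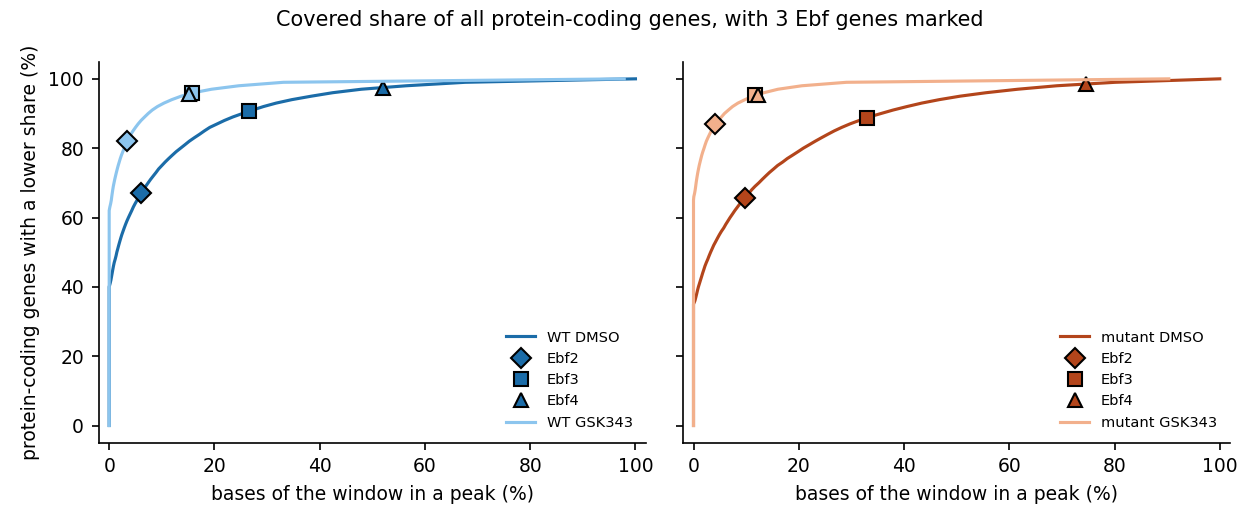
Cumulative distribution of the covered share over all 21631 protein-coding genes (lines), with the share of bases of the window in a peak on the x axis and the percent of genes with a lower share on the y axis, for WT (left) and mutant cells (right). Markers show Ebf2, Ebf3 and Ebf4 in the colour of the list; Ebf1, at 0, is not drawn. Ebf4 lies above 97.4% of genes in WT DMSO and 95.7% in WT GSK343, with genes without a peak counted as lower.

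The effect of the EZH2 inhibitor was described within each genotype. Covered length was lower under GSK343 at Ebf2, Ebf3 and Ebf4 in both genotypes, which is the direction of 99.3% of the genes with a peak in either list in WT and of 99.6% in mutant cells. At Ebf2 it fell by 43.0% in WT and 58.0% in mutant cells. The corresponding figures were 40.6% and 64.4% at Ebf3, and 70.7% and 83.5% at Ebf4. The covered length of the whole list was 75.0% lower in WT and 87.4% lower in mutant cells. These falls count short gaps between the peaks of a split domain as lost. With peaks closer than 3 kb merged, the ratio of GSK343 to DMSO covered length was measured for the 3 genes only. In WT it was 0.695 at Ebf2, 0.763 at Ebf3 and 0.270 at Ebf4, and in mutant cells 0.404, 0.482 and 0.157.

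With all peaks, each of the 3 genes kept more of its DMSO coverage than the list as a whole, with Ebf4 nearest to it. The ratio of GSK343 to DMSO covered length was 0.570 at Ebf2, 0.594 at Ebf3 and 0.293 at Ebf4 in WT, against a median of 0.148 over the 12888 genes with a WT DMSO peak. In mutant cells it was 0.420, 0.356 and 0.165, against a median of 0.0230 over 14017 genes. The medians and the ranks below include genes with a ratio of 0, which were 37.7% in WT and 47.6% in mutant cells. The ratio of Ebf3 in WT was above that of 92.8% of these genes and that of Ebf4 above 67.8%. In mutant cells Ebf2 was above 92.8% and Ebf4 above 71.6%. The Ebf4 ratio depended on the threshold: where only folds of 3 or more were kept it was 0.549 in WT and 0.122 in mutant cells.

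Peaks called under GSK343 lay almost entirely inside DMSO peaks of the same genotype. All 4 WT GSK343 peaks of Ebf2, all 7 of Ebf3 and 6 of 7 of Ebf4 were overlapped by a WT DMSO peak. In mutant cells all 3, all 8 and all 5 were, with 100% of their bases inside. The same share over all GSK343 peaks was not measured, so this overlap is not read as a trait of these genes. The bases covered in all 4 lists made up 7.81 kb at Ebf2, 18.2 kb at Ebf3 and 11.3 kb at Ebf4. That was 31.9%, 32.1% and 12.8% of the bases covered in at least 1 list. The longest common stretch was 67232252 to 67238320 at Ebf2 and 137311630 to 137323271 at Ebf3. At Ebf4 it was 130293526 to 130299841, followed by 130359613 to 130363926 at the far end (4.31 kb). At Ebf3 and Ebf4 the longest common stretch contained the start site.

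**Figure D5:**
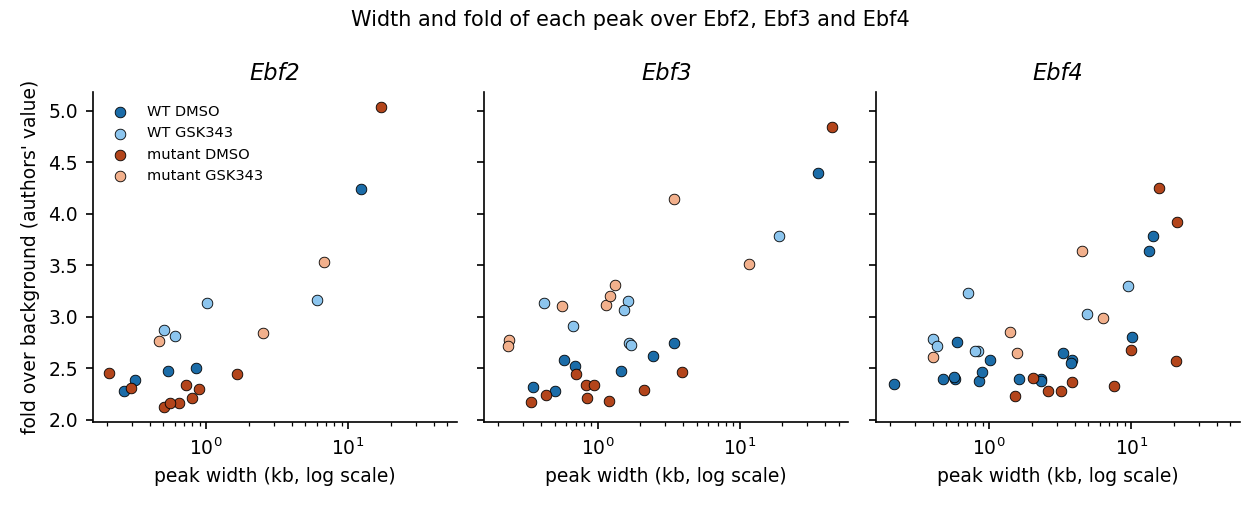
Width (x axis, kb, log scale) and the authors' fold over background (y axis) of each peak in the windows of Ebf2, Ebf3 and Ebf4, 1 point per peak, coloured by list. The widest DMSO peaks of Ebf2 (12.4 kb in WT, 17.0 kb in mutant cells) and of Ebf3 (35.4 and 44.5 kb) have the highest folds of their windows; folds are comparable within a list, not between lists.

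WT and mutant cells were compared treatment by treatment. With DMSO the covered share was higher in the mutant list by 3.75 percentage points at Ebf2, 6.42 at Ebf3 and 22.6 at Ebf4, the direction of 89.8% of the genes with a peak in either DMSO list. The mutant DMSO list was also the longest of the 4 over the whole genome, at 134 Mb against 84.3 Mb in WT DMSO. Mutant to WT ratios of covered length were 1.62 at Ebf2, 1.24 at Ebf3 and 1.43 at Ebf4. The part of list length in the differences at these genes was not tested. Most of the bases covered in mutant DMSO and not in WT DMSO lay in mutant peaks that overlapped a WT peak, at 59.6% of them at Ebf2, 64.1% at Ebf3 and 85.5% at Ebf4. The rest lay in mutant peaks that overlapped no WT DMSO peak, which were 7 of 10 peaks at Ebf2, 6 of 10 at Ebf3 and 2 of 10 at Ebf4. Neither measure was taken over all mutant DMSO peaks, so these counts and shares cannot be called high or low. Mutant DMSO peaks covered 91.9% of the WT DMSO bases at Ebf2, 98.1% at Ebf3 and 95.6% at Ebf4. WT DMSO peaks in turn covered 56.8%, 79.0% and 66.7% of the mutant DMSO bases.

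Under GSK343 the mutant share was lower at Ebf3 by 4.02 points (15.8% in WT, 11.7% in mutant cells) and at Ebf4 by 2.93 points, the direction of 68.7% of the genes with a peak in either GSK343 list. At Ebf2 it was higher in the mutant list by 0.671 points. Neither the Ebf2 nor the Ebf4 direction held at every threshold. The mutant to WT ratio of covered length at Ebf2 was 1.19 with all peaks and 0.961 with a −log10 q-value of at least 2. At Ebf4 it was 0.808 with all peaks, 1.06 where −log10 p-values were 5 or more and 0.297 where folds were 3 or more. At Ebf3 it stayed below 1 at each threshold tried. The ratios at the fold threshold have the limit given above, that folds are not comparable between lists.

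The partners, targets and opponents of Ebf1 were examined through lists of genes, described by their counts beside the 59.6% of all genes with a peak in the window in WT DMSO. Among 9 partners in early B cells, 5 had a peak in the window in WT DMSO, near the share of all genes. In that list 1 partner, Il7r, the receptor for IL-7, had a peak in the body (3.85% of the body covered). The highest window share was that of Tcf3, the E protein with which Ebf1 acts, at 10.0% under DMSO and 3.69% under GSK343 in WT cells, all of it outside the gene body. Ikzf1, Foxo1, Spi1 and Ets1, transcription factors of the lymphoid program, had no peak in the window in any list. The same held for Ebf1 and for 33.6% of all protein-coding genes. The median share of the partners was 0.105% in WT DMSO, against 1.45% for all protein-coding genes.

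Of 10 B cell genes known as Ebf1 targets, 5 had a peak in the window under DMSO and 1 under GSK343 in WT cells, and 3 and 0 in mutant cells. The shares of all genes for these lists were 59.6% and 37.3% in WT and 64.8% and 34.1% in mutant cells, so the WT DMSO count was near the background and the other 3 were below it. The covered shares of the targets were low, up to 2.77% in WT DMSO at Fcrla, an intracellular Fc receptor-like protein of B cells, followed by Cd79a, the signalling chain of the B cell receptor, at 1.18%. Within a gene body the only peak was at Igll1, which encodes a part of the surrogate light chain, in WT DMSO (7.18% of the body). The neighbouring target Vpreb1 was counted in WT DMSO through this same peak, which lay in its window. Cd79b, Cd22, Pou2af1 and Bank1 had no peak in the window in any list.

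Among 6 factors of other lineages or inhibitors opposed to Ebf1, 6 had a peak in the window in both DMSO lists, and 5 in both GSK343 lists, beside 59.6% (WT) and 64.8% (mutant) of all genes under DMSO and 37.3% and 34.1% under GSK343. Their median share was 18.0% under DMSO and 9.30% under GSK343 in WT cells, and 24.95% and 4.57% in mutant cells. Gata3, a T cell factor, had the highest share, 51.2% with DMSO and 30.3% with GSK343 in WT cells, close to Ebf4 under DMSO and above it under GSK343. Id2, an inhibitor of E proteins, followed at 27.8% in WT DMSO, close to Ebf3, but its body, covered by 84.9% there, was covered by 0% under GSK343. The body of Cebpa, a myeloid factor, lay in peaks by 100% under DMSO and 81.7% under GSK343 in WT cells. In the body of Notch1, which drives T cell commitment, the shares were 1.87% and 0%, and in that of Tcf7, a T cell factor, 7.15% and 4.39%. Id3, a further inhibitor of E proteins, had peaks in its window and none in its body.

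The zinc-finger proteins Zfp423 and Zfp521, which bind EBF proteins, both had a peak in the body in each list, as did 18.5% of all protein-coding genes. Their window shares in WT DMSO were 10.1% and 3.07%. Of 5 brown fat genes linked to Ebf2, 5 had a peak in the body in each list, with a median window share of 5.31% in WT DMSO and 8.30% in mutant DMSO. Ucp1, the uncoupling protein of brown fat, had the highest, at 14.96% under DMSO and 3.01% under GSK343 in WT cells, and 28.5% and 1.55% in mutant cells. Cidea, a lipid droplet protein of brown fat, followed at 11.3% in WT DMSO. The bodies of Prdm16, Ppargc1a and Pparg, regulators of fat cell identity and metabolism, were covered by 2.69%, 1.09% and 2.93% in WT DMSO. Ebf2 itself, at 6.05%, lay within the range of these 5 genes.

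Genes with the most similar values were found by the distance between covered shares over the 4 lists, in percentage points, with no meaning for shared function. Nearest to Ebf2 were Synm, Gldc and Pla2g2c, at distances of 1.20, 1.23 and 1.25. Nearest to Ebf3 were Deaf1 (1.29), 1700067K01Rik (1.80) and Flywch1 (2.39). Among those nearest to Ebf4 were Cldn3 (5.14) and Foxo6 (5.47). Ebf1 shared its 4 values of 0 with 7265 other protein-coding genes.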

How the data were processed

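H3K27me3 ChIP-seq of splenic B cells was analysed from 4 deposited broad peak lists, 1 per genotype and treatment (8 groups of 2 samples, inputs included). Per the submitters' processing notes, the tools were bcl2fastq, Bowtie2 2.4.2, SAMtools 1.12, MACS2 2.2.7.1, bedtools 2.29.2 and deepTools 3.5.1 with build mm10; their settings are not given in the sources used here. The deposited lists give the position of each peak, the authors' fold (a linear ratio of ChIP over background), a score, and the −log10 of the p-value and of the q-value. The score was not used. Peaks overlapping a blacklist had been removed, per the file names. Read depth is not given, so no counting interval could be attached to a share.

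Genes came from a RefSeq table of GRCm38.p6, the assembly of mm10, and promoters from RefSeq sequences of the same build. Covered share is the percent of bases of a gene body plus 20 kb each side inside peaks; an overlap needs 1 bp. Genes were named by rule: the Ebf genes, protein-coding genes in their windows, the 2 most covered members of each list and those with a peak in the body, and the 3 nearest genes by covered share; others are named to complete a count, and 2 genes that these rules name are not reported here. The genes and lists were chosen with earlier results of these data known. The promoter comparison, the position of bases covered in the mutant list alone, the interval around Ebf1 and the comparison with long genes were added after seeing the data. Python 3.11.15, numpy 2.4.6, pandas 2.3.3, matplotlib 3.10.9 and bedtools 2.31.1 were used. On simulated peaks, covered bases and peak numbers were recovered for 300 of 300 genes. Alternatives were 3 thresholds on peaks, equal numbers of top peaks, merging within 3 kb, peaks of at least 1 kb, and flanks of 0, 10 and 50 kb.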

Additional observations from a re-analysis of the deposited data

Results flagged for a closer look

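At 2 of the genes the genotype difference had opposite directions under the 2 treatments; with 1 list per group, this was not tested. At Ebf3 the covered share was 6.42 percentage points higher in the mutant than in the WT list under DMSO (33.0% and 26.5%) and lower under GSK343, a difference of -4.02 points (11.7% and 15.8%). At Ebf4 the mutant share was 22.6 points higher under DMSO (74.5% and 51.9%) and lower under GSK343, a difference of -2.93 points (12.3% and 15.2%). The Ebf4 direction under GSK343 turned when only peaks with −log10 p-values of 5 or more were kept, where the mutant to WT ratio of covered length was 1.06. Over the whole genome the mutant list was likewise longer than WT under DMSO (134 and 84.3 Mb) and shorter under GSK343 (16.95 and 21.1 Mb), and the part of this in the values at Ebf3 and Ebf4 was not tested.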

How the results depend on the processing

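The 9 alternatives gave 468 values for 52 results, of which 381 stayed within 1.5 times the original value without a change of direction, 82 moved further and 5 reversed. No paired analysis was possible because only 1 peak list per group was used, and for that reason no replicate could be left out in turn. The number of Ebf genes with a peak was 3 in each list under 8 of the alternatives. With 50 kb each side it was 4 in both DMSO lists, where 1 peak was then counted for Ebf1. Covered length of the 4 windows together stayed lower under GSK343 under each alternative. The share of these windows covered, 12.5% in WT DMSO and 17.3% in mutant DMSO, was 7.91% and 10.3% when −log10 p-values of 5 or more were required, and again 7.91% and 10.3% when folds of 3 or more were. With lists cut to equal numbers of top peaks it was 11.4% in mutant DMSO, and the mutant GSK343 to DMSO ratio was 0.405 in place of 0.266. The 5 reversals were mutant to WT ratios of covered length under GSK343. At Ebf2 the ratio of 1.19 became 0.961 at each of the 3 thresholds on peaks (a −log10 q-value of 2, a −log10 p-value of 5, a fold of 3), and 0.980 with peaks closer than 3 kb merged. At Ebf4 it became 1.06 at the p-value threshold. Fewer peaks pass a stricter threshold by construction; otherwise the cause was not tested.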

Other observations

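Away from the domains at their ends, Ebf2 and Ebf3 held small peaks inside the gene body, of which only some were shared between lists. At Ebf3 a peak lay about the middle of the gene in 3 lists. It spanned 137254125 to 137256565 in WT DMSO (2.44 kb, fold 2.62), 137253515 to 137257469 in mutant DMSO (3.96 kb, fold 2.46) and 137255401 to 137255636 in mutant GSK343 (0.236 kb, fold 2.77). The WT GSK343 list had no peak there. At Ebf2, in part 3 of the body, WT DMSO had peaks at 67342991 to 67343841 (fold 2.501) and 67344961 to 67345225 (fold 2.27), and mutant DMSO had a peak at 67344452 to 67345009 (fold 2.16). The first of these WT peaks overlapped no mutant DMSO peak, and the second overlapped the mutant peak only at its edge. All of these Ebf2 peaks lay in the lncRNA gene 4930438E09Rik, and neither GSK343 list had a peak there. These peaks were chosen for mention after their values were seen.

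The interval without DMSO peaks around Ebf1 also held the protein-coding genes Ublcp1 and Rnf145, in both genotypes. In WT GSK343 the longer interval held Il12b as well, which encodes a subunit of the cytokines IL-12 and IL-23.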
